A study of Mus musculus with 167 samples.

Results

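The miR-135 family is represented in mature mouse miRNAs by 2 members of the 5p arm, mmu-miR-135a-5p and mmu-miR-135b-5p, which were 2 of the 1915 mature miRNAs listed in each count table. The pair was selected on measured values, namely the level of miR-135a-5p in heart in RPM (counts per 1000000 miRNA counts of the library), where C57 and C3H mice differed. The strain difference in heart is therefore given as a description without a test, in sham and irradiated mice alike.

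Mature miRNA was sequenced in heart, lung and brain homogenates and in white (WBC) and red (RBC) blood cell fractions of mice that lived to the study endpoint after whole thorax lung irradiation (WTLI, 1 dose to the chest) or sham irradiation. There were 167 libraries from 35 animals. In heart, lung and brain the groups were 8 sham and 7 WTLI mice of the strain C3Hf/Sed/Kam (C3H), all female and collected at month 4, and 15 sham mice (8 male, 7 female) and 5 WTLI mice (4 male, 1 female) of C57Bl/6 (C57), collected at month 6. RBC had the same numbers, and WBC had 5 and 6 C3H and 11 and 5 C57 libraries for sham and WTLI. Strain and month of collection cannot be told apart, and part of any difference between pooled C57 and C3H mice may go with sex, so strains were compared mainly among sham females. The added tests in irradiated lung and brain, and in blood with C57 males, mix sex with strain. The irradiated animals were survivors only. The libraries held 1794995 to 7865102 miRNA counts. Each sample name also held the letter A or B, which no source used here explains, and values within each letter are given where they differ.

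MicroRNAs are short RNAs that guide the silencing complex to messenger RNAs, mainly through the seed near their 5′ end. The miR-135 family is best known for targeting the APC tumour suppressor in colorectal cancer, JAK2 in lymphoid cells, and the serotonin transporter and serotonin receptor transcripts in raphe neurons. It is abundant in the brain, and miR-135b has been linked to inflammation of the lung. The mature 5p members are nearly identical in sequence, and how reads that match both were assigned was not stated, so the sum of the members and their ratio are given beside the single values.

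The mature arms that could be matched in RefSeq are printed 5′ to 3′ with the seed, bases 2 to 8, in capitals. The 5p arm is the counted member, and the 3p arms are shown because miR-135a-5p is made from 2 hairpins with the same 5p sequence that differ in their 3p arms.
mmu-miR-135a-5p: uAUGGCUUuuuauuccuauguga
mmu-miR-135a-1-3p: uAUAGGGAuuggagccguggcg
mmu-miR-135a-2-3p: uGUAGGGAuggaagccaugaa
mmu-miR-135b-3p: aUGUAGGGcuaaaagccauggg
Among 1679 mature miRNA names in the RefSeq table, the seed of miR-135a-5p occurred in 1, miR-135a-5p itself. The member mmu-miR-135b-5p was not matched, so that count says nothing of its seed, and it is given by name.

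The 3 hairpins lie on 3 chromosomes (GRCm38, with GENCODE M21 annotation). Mir135a-1 lies at chr9:106154124-106154213 on the plus strand, in an intron of the antisense transcript D030055H07Rik and opposite an exon of Glyctk. Mir135a-2 lies at chr10:92072086-92072185 on the minus strand, in an intron of the long noncoding RNA Rmst, which is known from neural development. Mir135b lies at chr1:132198088-132198184 on the plus strand, in an intron of Lemd1 and of the overlapping model AC124108.1.

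Brain held the most of both members in every strain and treatment group. In sham brain miR-135a-5p stood at 2119.7 ± 295 RPM in C3H (SD, n = 8) and 1985 ± 649 RPM in C57 (n = 15), and miR-135b-5p at 499.6 ± 85.5 and 458 ± 75.0 RPM. For miR-135a-5p the next tissue was heart, and for miR-135b-5p it was lung. Both were at or near 0 in blood cells. Without heart, which was used to choose the members, the order of neighbouring tissues was tested on log2(RPM + 1) differences within animals, with an exact sign-flip permutation test (two-sided) adjusted over 12 comparisons.

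For miR-135a-5p, brain exceeded lung in 8 of 8 C3H shams by 9.36 on the log2 scale (adjusted p = 0.0117, exact permutation test) and in 15 of 15 C57 shams by 8.41 (adjusted p = 0.000366, exact permutation test). Lung exceeded RBC in 8 of 8 C3H shams by 1.54 (adjusted p = 0.0117, exact permutation test) and WBC in 11 of 11 C57 shams by 1.63 (adjusted p = 0.00293, exact permutation test). For miR-135b-5p, brain exceeded lung in 8 of 8 C3H shams by 7.17 (adjusted p = 0.0117, exact permutation test) and in 14 of 15 C57 shams by 4.47 (adjusted p = 0.000488, exact permutation test). Lung exceeded RBC in 8 of 8 C3H and 15 of 15 C57 shams, by 1.78 and 4.30. The p of 0.0117 comes from 0.0078, the smallest that 8 animals allow. WBC and RBC were neighbours with no difference detected for either member (adjusted p of 0.826 to 1, exact permutation test). In C3H the 5 pairs could not give a p under 0.05. For miR-135b-5p nearly every blood library had 0 counts, so those tests could not have shown a difference.

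**Figure D1:**
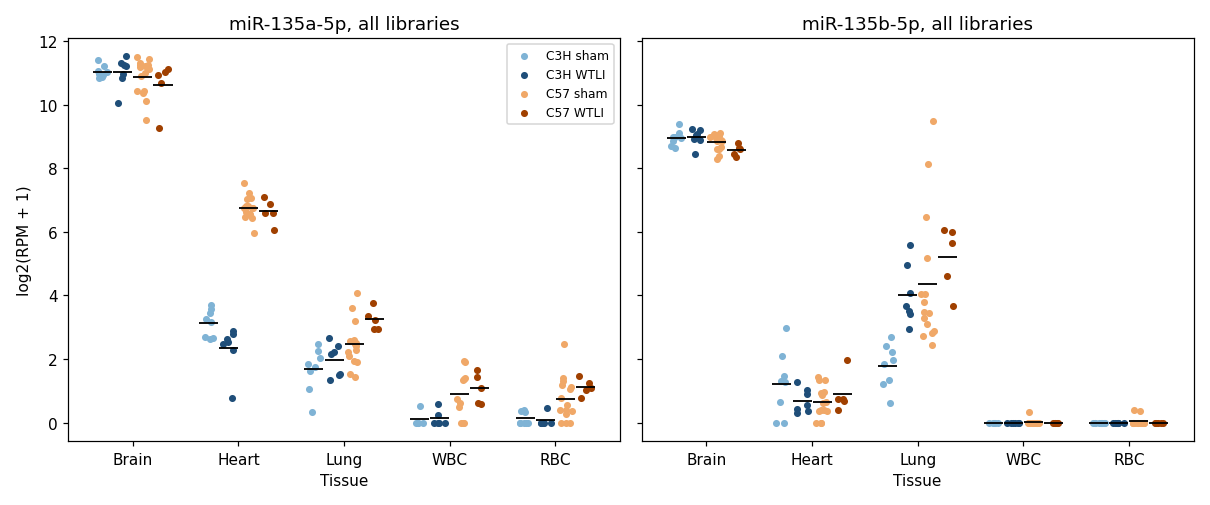
Level of miR-135a-5p (left) and miR-135b-5p (right) in every library, as log2(RPM + 1), by tissue. Each point is 1 library, colours mark strain and treatment, and black lines are group means. The points for miR-135a-5p in heart form 2 bands, C57 above C3H, whereas the strains lie together in brain, and miR-135b-5p stands near 0 in both blood fractions.

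In heart, miR-135a-5p was high in every C57 library and low in every C3H library. The 15 C57 shams ranged from 61.8 to 185 RPM with a median of 106, and the 8 C3H shams from 5.20 to 11.9 RPM with a median of 8.28. After WTLI, the 5 C57 hearts held 95.9, 96.1, 137, 65.6 and 116 RPM, and the 7 C3H hearts ranged from 0.697 to 6.38 RPM with a median of 4.81. The strains did not overlap in either treatment group, and the lowest C57 library stood above the highest C3H library. The group means were 110.4 ± 29.5 RPM (n = 15) against 8.17 ± 2.66 RPM (n = 8) in shams, a 13.5-fold ratio, and 102 ± 26.5 RPM (n = 5) against 4.49 ± 1.86 RPM (n = 7) after WTLI, a 22.8-fold ratio. The C57 values rest on 214 to 485 counts per library and the C3H values on 3 to 40.

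**Figure D2:**
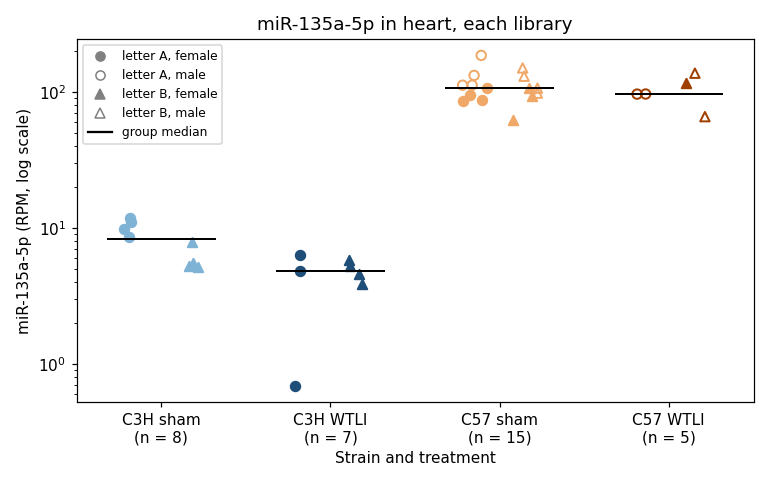
Level of miR-135a-5p in each heart library (RPM, log scale) by strain and treatment. Circles are letter A and triangles letter B, filled symbols females and open symbols males, and black lines group medians. All 20 C57 libraries sit at or above 61.8 RPM and all 15 C3H libraries at or below 11.9 RPM.

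In the fit over all heart miRNAs, the C57 minus C3H difference of miR-135a-5p was 3.87 on the log2 scale (SE 0.19) among sham females and 4.58 (SE 0.22) among irradiated mice. As a description of a member chosen for this difference, 0 of 312 miRNAs fitted in heart had a larger absolute strain difference in either comparison. The next was miR-582-5p at 3.25 in sham females and miR-216a-5p at 4.53 in irradiated mice, and the median absolute difference over all miRNAs was 0.45 and 0.37. For scale, 36 of the 312 (11.5%) were past the call rule in sham females, an adjusted p under 0.05 with an absolute log2 difference of 1.17 or more, the fold minimum. Within letter A the difference among sham females was 3.89 and within letter B 3.80. With all C57 shams, males included, it was 3.95.

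The partner miR-135b-5p did not follow in heart. The C57 shams held 0 to 1.73 RPM with a median of 0.55, and the C3H shams 0 to 6.79 RPM with a median of 1.45. After WTLI the order of means was the other way, at 1.03 ± 1.07 RPM in C57 and 0.66 ± 0.45 RPM in C3H (n = 5 and 7). The strains overlapped, and at 0 to 24 counts per library miR-135b-5p was removed by the filter on low counts, so it was not fitted in heart. The summed family therefore followed miR-135a-5p, at 111 ± 29.7 RPM in C57 and 10.1 ± 4.26 RPM in C3H shams (n = 15 and 8).

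The ratio of miR-135b-5p to miR-135a-5p counts differed between tissues by orders of magnitude, in libraries with at least 10 counts of miR-135a-5p. In brain the 35 ratios ran from 0.175 to 0.530 with a median of 0.223. In C57 heart they ran from 0 to 0.0163 in shams and from 0.0032 to 0.0251 after WTLI, and in C3H heart from 0 to 0.615 over 14 libraries, 8 sham and 6 WTLI. In lung, where 24 libraries had enough counts, they ran from 0.333 to 45.4 with a median of 2.21. The members thus did not keep 1 ratio, and in C57 heart counts of miR-135a-5p came with almost no counts of miR-135b-5p.

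**Figure D3:**
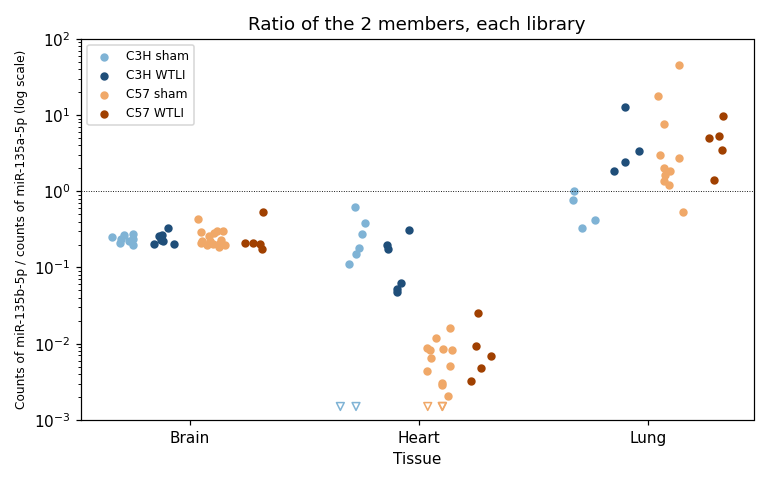
Counts of miR-135b-5p divided by counts of miR-135a-5p in each brain, heart and lung library with at least 10 counts of miR-135a-5p (log scale). Colours mark strain and treatment, open triangles at the bottom are libraries with no count of miR-135b-5p, and the dotted line marks equal counts. Brain clusters near its median of 0.223, C57 heart lies below 0.03, and most lung libraries lie above 1.

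Markers of other cell types were set beside the strain difference as sums over 8 fixed lists of miRNAs (cardiac muscle, neuron and glia, epithelium, ciliated epithelium, erythrocyte, leukocyte, endothelium, mesenchyme). In sham hearts all 8 overlapped between the strains, and after WTLI 7 did. The cardiac muscle list (5 of 5 members detected, among them miR-1a-3p and miR-133a-3p) reached 216093 to 298888 RPM in C57 hearts and 216333 to 291055 RPM in C3H shams, so the tissue label held in these. The 7 C3H WTLI hearts ranged from 50746 to 246901 RPM of the list. All 3 of letter A lay under every C3H sham, at 208919, 152513 and 50746 RPM (replicates 1, 2 and 3), and replicate 3 was also the library with 3 counts of miR-135a-5p. The 4 of letter B held 217045 to 246901 RPM. Without it, the strain difference after WTLI was 4.36. The neuron and glia list (6 of 6 detected) overlapped between strains, at 468 to 943 RPM in C57 and 450 to 1094 RPM in C3H hearts. The neuronal miR-124-3p, the only member of that list given singly, averaged 0.80 ± 1.32 RPM in C57 and 3.33 ± 5.10 RPM in C3H sham hearts (n = 15 and 8), the opposite order of means to miR-135a-5p, with an SD in C3H wider than the difference. After WTLI its order of means was that of miR-135a-5p, at 2.56 ± 2.003 RPM in C57 and 0.647 ± 0.621 RPM in C3H (n = 5 and 7). The leukocyte list overlapped likewise, at 986 to 2603 RPM in C57 and 833 to 10253 RPM in C3H hearts. The ciliated epithelium list overlapped in shams, at 28.8 to 123 RPM in C57 and 61.9 to 200.2 RPM in C3H, but after WTLI it was lower in every C57 heart, at 77.8 to 178 RPM against 184 to 724 RPM, and its part in the strain difference was not tested. Whether this list marks ciliated cells in irradiated heart was not tested either. In homogenates like these, more cells of a type and more RNA per cell cannot be told apart.

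The 3p arms bear on which hairpin was read. In brain the 35 libraries together held 129 counts of miR-135a-2-3p in 33 libraries, against 3 counts of miR-135a-1-3p. As a share of each arm plus miR-135a-5p these were 0.0633% (95% exact binomial interval 0.0529 to 0.0752) and 0.0015% (0.0003 to 0.0043). In heart there was 1 count of miR-135a-2-3p and 0 of miR-135a-1-3p beside 6848 counts of miR-135a-5p. The heart intervals, 0.0004% to 0.0813% and 0 to 0.0539%, include the brain shares, so the hairpin in use in heart was not detectable at this depth. The intervals cover counting error only. The arm miR-135b-3p had 16 counts in brain, 1 in lung and 0 elsewhere.

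Neighbouring miRNAs of the loci were read with the same fits. The only miRNA within 50 kb on the same strand was let-7g, 24716 bases from Mir135a-1 and a growth-restraining miRNA of the let-7 family. In heart let-7g-5p stood at 3361 ± 519.5 RPM in C57 and 3891 ± 990 RPM in C3H shams (n = 15 and 8), and its strain difference among sham females was -0.11 (SE 0.10). The Rmst locus holds a further miRNA, Mir1251, 65054 bases from Mir135a-2 on the same strand, which was looked up after the values of the members were known. In heart miR-1251-5p had 39 counts in 17 of 20 C57 libraries (at most 5 in 1 library) and 3 counts in 3 of 15 C3H libraries. In RPM that was 0.65 ± 0.48 and 0.05 ± 0.11. In brain it had 16.3 ± 5.20 RPM in C3H (n = 15) and 12.8 ± 4.08 RPM in C57 (n = 20), and in lung 1 count in each strain. So in heart the strain with more miR-135a-5p also had more libraries with miR-1251-5p, at a few counts each, and no test was made.

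The miRNAs whose pattern was most like that of miR-135a-5p over the 20 group means of log2(mean RPM + 1) were miR-204-5p (Pearson r = 0.97), miR-139-5p (0.96), miR-434-3p (0.96), miR-137-3p (0.96) and miR-212-5p (0.95). These points share tissues, strains and libraries, and brain is the high end for all. Over the 35 heart libraries the order was miR-204-5p (r = 0.91), miR-342-3p (0.88), miR-30a-5p (0.85), miR-139-5p (0.84) and let-7d-3p (0.82). The heart libraries fall into 2 strain clusters, so the values within strain are given too. For miR-204-5p r was 0.91 over 15 C3H and 0.63 over 20 C57 hearts. For miR-342-3p it was -0.53 and -0.21, so that miRNA shared the strain step and not the variation within strains. In heart miR-204-5p stood at 68.3 ± 20.6 RPM in C57 and 23.6 ± 13.5 RPM in C3H shams (n = 15 and 8). In lung its strain difference among sham females was in the other direction, -1.66 (SE 0.27, limma adjusted p = 3.4e-05).

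For miR-135b-5p the miRNAs most like it over the 20 group means were miR-672-3p (r = 0.97), miR-206-3p (0.97), miR-7b-5p (0.97), miR-1264-3p (0.96) and miR-1298-3p (0.96). Over the heart libraries, where it had few counts, the highest values were 0.65 for miR-124-3p, 0.62 for miR-3069-3p, 0.60 for miR-106a-5p, 0.59 for miR-18b-5p and 0.56 for miR-7a-2-3p.

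Outside heart, no strain difference of miR-135a-5p among sham females was called. In brain, sham females had 1465 ± 552 RPM in C57 (n = 7) and 2119.7 ± 295 RPM in C3H (n = 8), and the groups overlapped. The log2 difference was -0.67 (SE 0.19, 95% interval -1.07 to -0.27, limma adjusted p = 0.0228), less than the fold minimum, so it was not called. The brain difference of miR-135b-5p was smaller, 408 ± 79.5 against 499.6 ± 85.5 RPM, a log2 difference of -0.34 (SE 0.12, limma adjusted p = 0.0408). Of 433 miRNAs fitted in brain, 12 were called in that comparison (2.77%) and 69 (15.9%) had an adjusted p under 0.05. In absolute size, 81 of the 433 exceeded miR-135a-5p and 204 exceeded miR-135b-5p, and the median over all was 0.32. The brain strain difference was larger within letter B, -1.27 (limma adjusted p = 8.7e-06) for miR-135a-5p and -0.70 (0.000186) for miR-135b-5p. Within letter A it was -0.21 (limma adjusted p = 0.671) and -0.03 (0.918). The letter B values rest on 3 C57 sham females, and the share of all miRNAs called within 1 letter is not given.

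In brain the C57 females of letter B were among the lowest. Their 3 shams held 733, 1384 and 1099 RPM of miR-135a-5p, and the only irradiated C57 female, also of letter B, held 611 RPM, the lowest of all 35 brains. The other 12 C57 sham brains ranged from 1311 to 2875 RPM, so the sets overlapped, and a C3H WTLI brain of letter A (replicate 2) held 1065 RPM. The neuron and glia list did not set these 3 libraries apart from the other 12, with 152948 to 159943 RPM against 131125 to 176467 RPM. Other miRNAs did move with them. The level of miR-206-3p was 2223 to 2730 RPM in the 3 and 75.5 to 1345 RPM in the 12. In C3H shams of letter A it averaged 834 RPM in brain and 0.60 RPM in heart. The endothelium list (2 of 2 detected) was lower in part, at 95578 to 123853 against 119613 to 169445 RPM, and the epithelium list overlapped, at 8069 to 20622 against 172 to 41037 RPM. That highest brain value lay above every lung library (at most 37452 RPM), and whether the list marks epithelium in brain was not tested. The mesenchyme list (5 of 5 detected) was lower without overlap, at 6867 to 7389 against 7609 to 10694 RPM. The neuronal miR-124-3p within the neuron and glia list differed like miR-135a-5p in brain, by -0.72 for strain among sham females (SE 0.25, limma adjusted p = 0.0439) and by 1.07 for sex in C57 shams (SE 0.25, limma adjusted p = 0.00271), both short of the fold minimum. It is 1 of 6 members of that list, whose sum overlapped in both comparisons. The other members are not given singly, so it does not stand for the list. Within letter B, 2 of the 8 lists separated the strains among sham females, epithelium (higher in C57, against 228 to 6350 RPM in C3H) and endothelium (lower in C57, against 141923 to 157024 RPM in C3H). The part of these markers in the results was not tested. The sex comparison in C57 shams rests on the same females. Males exceeded females by 0.78 for miR-135a-5p (SE 0.19, limma adjusted p = 0.00503) and by 0.33 for miR-135b-5p (SE 0.12, limma adjusted p = 0.0364). Neither reached the fold minimum, 18 of 433 miRNAs were called (4.16%), and 99 (22.9%) had an adjusted p under 0.05. Over both letters all 8 lists overlapped between the sexes, although the ciliated epithelium list was 1923 to 2329 RPM in males and 1006 to 1932 RPM in females, and the epithelium list at most 2165 RPM in males and up to 41037 RPM in females. Within letter B, 4 of the 8 separated the sexes, with epithelium lower in males (172 to 1814 RPM) and ciliated epithelium (1923 to 2329 RPM), endothelium (143797 to 156330 RPM) and mesenchyme (8945 to 9577 RPM) higher, and their part was not tested. Within letter B the sex difference of miR-135a-5p was 1.42 (limma adjusted p = 5.5e-06) and within letter A 0.28 (0.688). The miR-1251-5p of the Rmst locus gave -0.80 (SE 0.22, limma adjusted p = 0.0144) for strain and 0.75 (SE 0.22, limma adjusted p = 0.0122) for sex in these same brain libraries.

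In lung, miR-135a-5p was low in both strains. Sham females held 1.71 to 5.11 RPM in C57 and 0.272 to 4.58 RPM in C3H, and the log2 difference was 0.56 (SE 0.42, 95% interval -0.30 to 1.42, limma adjusted p = 0.435). For miR-135b-5p, C57 sham females held 5.99 to 15.3 RPM with a median of 8.72, and C3H shams 0.542 to 5.41 RPM with a median of 2.72. These groups did not overlap, but the model gave 1.95 (SE 0.93, limma adjusted p = 0.187), and 20 of 350 miRNAs (5.71%) were called. Of the 8 marker lists, ciliated epithelium separated these groups, at 7657 to 12104 RPM in C57 and 3408 to 5242 RPM in C3H, the epithelium list was higher in part (19709 to 32852 against 12588 to 22592 RPM), and their part in the result was not tested. A set of 4 C57 male shams of letter A with far higher values (35.4 to 717 RPM) entered this fit through the shared estimate of error. Without them the difference was 1.98, given with no p because they were left out for their values of this miRNA.

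Among irradiated mice, where the C3H were all female and 4 of the 5 C57 male, the strains were compared in lung and brain after the other values were seen. The C57 WTLI lungs held 6.74, 8.46, 6.72, 12.6 and 9.17 RPM of miR-135a-5p, and the C3H WTLI lungs ranged from 1.55 to 5.30 RPM with a median of 3.45. The strains did not overlap, and the log2 difference was 1.61 (SE 0.43, limma adjusted p = 0.00534), which was called, as were 37 of 350 miRNAs (10.6%). With sex as a covariate it was 1.097 and no longer called (limma adjusted p = 0.166), and strain and sex can hardly be separated with 1 irradiated C57 female. All 8 marker lists overlapped between these groups, but the epithelium list was 22664 to 32542 RPM in C57 against 8381 to 22738 RPM in C3H and the ciliated epithelium list 5768 to 11055 against 2960 to 6186 RPM, and their part was not tested. The difference of miR-135b-5p in these lungs was 1.54 (limma adjusted p = 0.147), and the strains overlapped. In irradiated brain both members differed by -0.50 on the log2 scale, with a limma adjusted p of 0.317 for miR-135a-5p and 0.0316 for miR-135b-5p. Neither was called, 13 of 433 miRNAs were (3%), and 29 (6.7%) had an adjusted p under 0.05. With sex as a covariate the difference of miR-135a-5p was -1.196 and was called (limma adjusted p = 0.00283), and with C57 males alone it was -0.23 (limma adjusted p = 0.454), so this value depends on how sex is treated. The share of all miRNAs called in the covariate fit is not given.

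**Figure D4:**
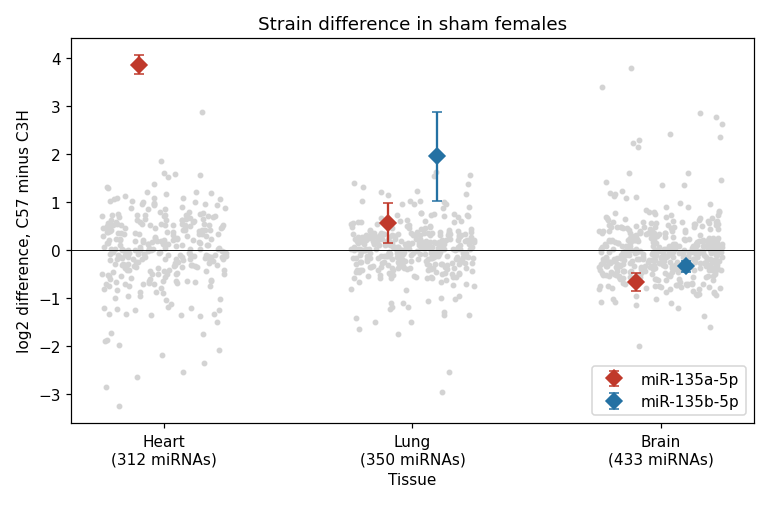
C57 minus C3H difference (log2) in sham females for every miRNA fitted in heart, lung and brain (grey points), with miR-135a-5p in red and miR-135b-5p in blue and bars of 1 SE. In heart miR-135a-5p is the topmost point at 3.87, in brain both members lie below 0, and miR-135b-5p has no heart point because it was filtered out.

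In blood cells miR-135a-5p had at most 17 counts per library and was not fitted. Female C57 WBC shams had 0, 4, 2 and 2 counts, and the 5 C3H WBC shams had 2, 0, 0, 0 and 0. The 7 female C57 RBC shams had 7 counts in all and the 8 C3H RBC shams 3. Among sham females the strains overlapped, with log2(RPM + 1) differences of 0.55 in WBC (p = 0.127, adjusted p = 0.249, exact permutation test) and 0.18 in RBC (p = 0.249, adjusted p = 0.249, exact permutation test). With C57 males added, a comparison that mixes sex with strain, the differences were 0.79 in WBC (adjusted p = 0.0446, exact permutation test) and 0.62 in RBC (adjusted p = 0.0335, exact permutation test). These blood tests were added after the values were seen. After WTLI the 5 C57 libraries had 2, 7, 2, 7 and 4 counts in WBC and 3, 6, 4, 4 and 6 in RBC, while the C3H libraries had 0 to 2 in WBC and 0 or 1 in RBC. The member miR-135b-5p had 1 count over 27 WBC libraries and 2 over 35 RBC libraries, at most 1 in a library.

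In C3H heart, miR-135a-5p was lower after WTLI at an adjusted p under 0.05, but short of the fold minimum. The shams held 9.86, 8.63, 11.03, 11.9, 5.52, 5.28, 5.20 and 7.93 RPM, and the WTLI hearts 6.38, 4.81, 0.697, 5.83, 4.56, 3.91 and 5.23 RPM. All 7 WTLI values lay under the sham median and 4 lay under every sham value, so the groups overlapped. The log2 change was -0.83 (SE 0.23, 95% interval -1.29 to -0.36, limma adjusted p = 0.0106), below the fold minimum and so not called. By the call rule 21 of 312 miRNAs (6.73%) were called in C3H heart, and 52 (16.7%) had an adjusted p under 0.05. Without replicate 3, the library low in cardiac muscle miRNAs, the change was -0.62 (limma adjusted p = 0.0461). The shams themselves split by letter without overlap, at 8.63 to 11.9 RPM in letter A and 5.20 to 7.93 RPM in letter B (n = 4 each), while the WTLI means were 3.96 ± 2.93 RPM (n = 3) and 4.88 ± 0.829 RPM (n = 4). Within letter A, where all 3 irradiated hearts were also low in cardiac muscle miRNAs, the change was -1.23 (limma adjusted p = 0.0432), and within letter B -0.55 (0.420). Of the 8 marker lists, all overlapped between WTLI and sham over both letters. Within letter A the endothelium list was also higher after WTLI without overlap (359307 to 416562 against 295324 to 347264 RPM), and within letter B the ciliated epithelium list was higher (454 to 724 against 61.9 to 92.7 RPM) and the erythrocyte list lower (349 to 517 against 608 to 940 RPM). Between the letters, the shams separated in the leukocyte list (1655 to 10253 RPM in A, 1065 to 1582 RPM in B) and the mesenchyme list (58923 to 81090 RPM in A, 41644 to 53547 RPM in B). The part of these lists in the result was not tested. In the same C3H hearts the ciliated epithelium list (5 of 5 detected, the miR-34b, miR-34c and miR-449 group) ran from 184 to 724 RPM after WTLI and from 61.9 to 200.2 RPM in shams, and its part in the result was not tested. The study reported miR-34b-3p and miR-34c-3p as differentially expressed in C3H heart, and whether the list marks ciliated cells there was not tested.

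In C57 heart, irradiated values of miR-135a-5p lay within the sham range of both sexes together. Irradiated males held 95.9, 96.1, 137 and 65.6 RPM against 97.5 to 185 RPM in sham males. The irradiated female held 116 RPM against 61.8 to 107 RPM in sham females. The fit had no term for sex. The log2 change of miR-135a-5p was -0.20 (SE 0.16, 95% interval -0.53 to 0.13, limma adjusted p = 0.617), with 3 of 312 miRNAs called (0.962%). The difference between the strains in the response, C3H minus C57, was -0.63 (SE 0.28, 95% interval -1.196 to -0.055, unadjusted limma p = 0.0325, limma adjusted p = 0.280). By that interaction test 0 of 312 miRNAs were called (0%), and 51 had an unadjusted p under 0.05. The sex difference in C57 sham heart was 0.17 (SE 0.16, limma adjusted p = 0.410), where 26 of 312 miRNAs (8.33%) were called. The leukocyte list separated the sexes there, at 1672 to 2603 RPM in males and 986 to 1592 RPM in females, and its part was not tested. In RPM, C57 males stood at 128 ± 28.4 (n = 8) and females at 90.6 ± 15.2 (n = 7).

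In lung, the target of the irradiation, miR-135b-5p was higher in irradiated C3H mice. The C3H shams held 3.69, 1.295, 1.53, 2.89, 2.55, 4.35, 0.542 and 5.41 RPM, and the WTLI lungs 29.8, 6.61, 9.71, 11.8, 46.7, 10.3 and 16.0 RPM. All 7 irradiated lungs exceeded every sham, and the means were 18.7 ± 14.5 RPM (n = 7) against 2.78 ± 1.65 RPM (n = 8), a 6.72-fold ratio. The fit gave a log2 change of 2.19 (SE 0.96, 95% interval 0.25 to 4.14, limma adjusted p = 0.0775), which missed the threshold, and 34 of 350 miRNAs (9.71%) were called. The exact permutation test on the sum of both members gave a log2 difference of 1.73 (p = 0.000155, the smallest that 7 against 8 libraries allow, adjusted p = 0.00155 over 10 tests).

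In C57 lung the shams were not uniform. Of the 15, the 4 males of letter A held 281, 88.0, 35.4 and 717 RPM of miR-135b-5p, while the other 11 ranged from 4.43 to 15.4 RPM with a median of 8.72. The 5 irradiated C57 lungs held 66.1, 11.8, 23.5, 62.4 and 49.1 RPM. With all shams the groups overlapped and the log2 change was 0.81 (SE 0.73, 95% interval -0.67 to 2.28, limma adjusted p = 0.442), where 21 of 350 miRNAs (6%) were called. The order of the groups depended on the summary, since C57 shams averaged 81.6 ± 189.7 RPM and irradiated lungs 42.6 ± 24.0 RPM, while the medians were 10.04 and 49.1 RPM.

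The 4 male libraries of letter A differed from the other C57 shams in further miRNAs. Their miR-21a-5p, a miRNA raised in inflamed and fibrotic tissue, was 49874 to 236828 RPM against 24169 to 40661 RPM. Their leukocyte list was higher in part, at 4431 to 9748 RPM against 2393 to 4495 RPM. Their endothelium list was lower in part, at 212137 to 402695 against 368131 to 451412 RPM. Their epithelium list overlapped, at 15674 to 37452 against 19709 to 36605 RPM, and all 8 lists did so at least in part. Without these 4 libraries the log2 changes of miR-135b-5p were 2.23 in C3H and 1.85 in C57. They were left out after their high miR-135b-5p was seen, which by itself raises the C57 change, so these values are a description with no p. Within letter B, which also lacks these 4 libraries, the changes were 2.15 in C3H and 2.23 in C57, likewise a description with no p. Within letter A they were 2.19 (limma adjusted p = 0.364) and -0.65 (limma adjusted p = 0.823).

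**Figure D5:**
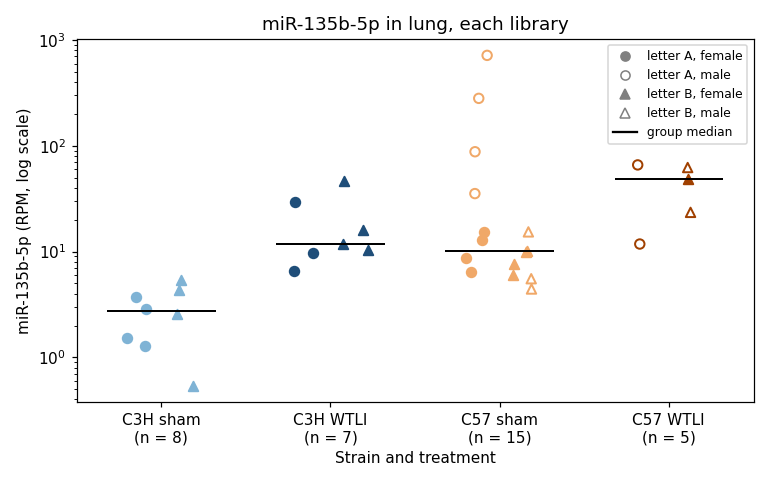
Level of miR-135b-5p in each lung library (RPM, log scale) by strain and treatment. Circles are letter A and triangles letter B, filled symbols females and open symbols males, and black lines group medians. All C3H WTLI lungs lie above all C3H shams, and the open circles of 4 C57 sham males stand at 35.4 to 717 RPM above the other C57 shams.

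The strain difference in the lung response did not pass the interaction test, with a C3H minus C57 difference of 1.39 (SE 1.202, 95% interval -1.05 to 3.83, limma adjusted p = 0.648), and 1 of 350 miRNAs (0.286%) was called. The wide interval does not show that the strains responded alike. The sex difference in C57 sham lung was 1.88 for miR-135b-5p (SE 0.73, limma adjusted p = 0.0835), with 8 of 350 miRNAs called (2.29%), and it was 0.05 within letter B (limma adjusted p = 0.950). The leukocyte list moved with irradiation in part, from 2393 to 9748 RPM in C57 shams to 5564 to 6829 RPM after WTLI, and from 3397 to 4826 RPM in C3H shams to 2552 to 7019 RPM. The endothelium list was lower after WTLI in C3H lung, from 380361 to 444378 RPM in shams (median 413975) to 297017 to 390147 RPM (median 310730). In C57 lung it ran from 212137 to 451412 RPM in shams (median 385622) and from 285337 to 352260 RPM after WTLI (median 343255). Other lists moved in C3H lung too. The median of the erythrocyte list was 409 RPM in shams and 1063 RPM after WTLI. The cardiac muscle list held 4769 to 7530 RPM in shams and 2571 to 5231 RPM after WTLI. All 8 lists overlapped between WTLI and sham in each strain, and the part of these lists in the result was not tested.

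Over the 35 lung libraries, in a search added after the values were seen, miR-135b-5p varied most like miR-21a-5p (Pearson r = 0.85), followed by miR-155-5p (0.79), a miRNA of activated immune cells, miR-672-5p (0.73), miR-206-3p (0.71) and miR-449c-5p (0.69). Within strain, r with miR-21a-5p was 0.83 over 15 C3H and 0.87 over 20 C57 lungs. The points share the irradiation groups and the 4 high C57 libraries, so these values are a description. For miR-135a-5p the highest lung value was lower, 0.68 with miR-141-3p, a miRNA of epithelium.

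Lung miR-135a-5p did not pass the test for irradiation in either strain. Its log2 change in C3H was 0.09 (SE 0.45, limma adjusted p = 0.913). In C57 it was 0.71 (SE 0.33, 95% interval 0.04 to 1.38, limma adjusted p = 0.130). All 5 irradiated C57 lungs, at 6.74, 8.46, 6.72, 12.6 and 9.17 RPM, lay above the sham median of 4.36 RPM but within the sham range. Its interaction was -0.62 (SE 0.56, limma adjusted p = 0.649) and its sex difference 0.83 (SE 0.37, limma adjusted p = 0.132).

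Brain lay outside the irradiated field and neither member was called there. The C3H change of miR-135a-5p was 0.03 (SE 0.26, 95% interval -0.49 to 0.54, limma adjusted p = 0.997) and that of miR-135b-5p 0.06 (SE 0.13, limma adjusted p = 0.997). The C57 change of miR-135a-5p was -0.21 (SE 0.26, limma adjusted p = 0.749). That of miR-135b-5p was -0.27 (SE 0.13, unadjusted limma p = 0.0404, limma adjusted p = 0.369), and all 5 irradiated values lay under the sham median. This fit had no term for sex. The irradiated C57 males held 352, 400, 439 and 388 RPM, under every sham male (464 to 546 RPM). The irradiated female held 324 RPM, within the sham female range of 313 to 531 RPM. These values within sex are a description. No brain miRNA passed limma in C3H (0 of 433, 0%, with 9 at an unadjusted p under 0.05) or in C57 (0 of 433, 0%, with 53). The interaction in brain was 0.24 (SE 0.36) for miR-135a-5p and 0.33 (SE 0.18) for miR-135b-5p, with 0 of 433 called by limma (0%) and 21 at an unadjusted p under 0.05.

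For the sum of both members, the 10 exact permutation tests of irradiation gave 1 adjusted p under 0.05, that of C3H lung. C3H heart followed with a log2 difference of -0.86 (p = 0.0101, adjusted p = 0.0505, exact permutation test). The other 8, in C57 heart and lung, both brains and all blood fractions, had log2 differences between -0.24 and 0.76 (adjusted p of 0.819 or more, exact permutation test).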

How the data were processed

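Per the labels and methods, the authors prepared small RNA libraries and aligned reads to mouse miRNAs (mm10), and the deposited tables (1 per tissue) hold raw read counts of 1915 mature miRNAs. Use of molecular identifiers and the assignment of reads matching several miRNAs were not stated. All columns named a sample (0 without one). Over 746 pairs of libraries within groups, the chi-square per degree of freedom was at least 17.8, so none was taken as a duplicate. That replicates came from separate animals is given by the animal numbers in the sample names.

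RPM were computed from library totals. Tests used R 4.3.3, limma 3.58.1 and edgeR 4.0.16: filterByExpr (minimum count 10, total 15), voom with quantile normalisation, 1 fit per tissue with 4 groups (strain by WTLI), or 6 groups with sex for strain and sex, two-sided tests, and Benjamini-Hochberg adjustment over all miRNAs of the tissue. Calls required an absolute log2 difference of 1.17 or more together with an adjusted p below 0.05. Quantile normalisation makes all libraries share 1 distribution, so fitted changes can differ from ratios of RPM. The fits were tested on simulated data. Single values were tested by exact permutation in Python 3.11.15 on log2(RPM + 1); the C57 against C3H tests in blood enumerated all divisions of the libraries. DESeq2 1.42.0 served as an alternative.

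The members and marker lists were chosen with earlier results of these data known. Named miRNAs were the members, the other arms of their hairpins, miRNAs within 50 kb, miRNAs with the same seed, and for each member the 5 most correlated miRNAs over 20 group means and over 35 heart libraries, with at least 10 RPM in 1 group. Of the 5 mature arms of the 3 hairpins, 4 matched the RefSeq table (GRCm38). Alternatives, effects of which are given in the closing section, covered normalisation, tool, filter, letter, sex, single strains and leaving out single irradiated libraries. The heart strain difference has no test.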

Additional observations from a re-analysis of the deposited data

How the results depend on the processing

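Over 657 alternatives of 59 results, 600 kept direction and side of the threshold, or moved by less than the spread between libraries where there was no test. Values are log2 differences, and the cause of a change was not tested. Every alternative run kept the sign of the heart strain difference of miR-135a-5p. It spanned 3.48 to 3.89 in sham females (3.95 with C57 males added) and 4.36 to 4.87 after WTLI. The member was chosen for this difference and the strains did not overlap, so the kept sign is no support. The stricter filter dropped miR-135a-5p from the heart fit, and leave-one-out was not run in blood, where neither member was fitted. With no fold minimum, miR-135a-5p passed in C3H heart after WTLI (-0.83), and both members passed in brain for strain (-0.67 and -0.34) and sex (0.78 and 0.33). Letter A alone gave -1.23 for C3H heart, now called, -0.068 for sex in C57 heart, -0.55 and -0.16 for miR-135a-5p after WTLI in C3H lung and brain, and -0.024 for its brain interaction, the last 4 reversed. Letter B alone made the calls -1.27 for strain and 1.42 for sex of miR-135a-5p in brain, both on the same 3 C57 sham females. The share of all miRNAs called is not given for any alternative, so these calls stand without that background.

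The 4 C57 male sham lungs of letter A were left out for their high miR-135b-5p, so calls gained without them support nothing. The same holds for lung calls of miR-135b-5p gained within letter B, which also lacks them. For miR-135b-5p in C3H lung, the irradiation call was gained with DESeq2 (2.47), library size alone (2.66), letter as covariate (2.32), letter B (2.15), 1 strain at a time (2.26) and without the 4 C57 male shams of letter A (2.23). In C57 lung it was gained with letter B (2.23) and without the 4 (1.85), and the sign turned with edgeR (-1.06), DESeq2 (-1.07), letter A (-0.65) and C57 males alone (-0.23), fits that keep the 4. The lung interaction turned within letter B (-0.074). The lung strain call of miR-135b-5p was gained without the 4 (1.98) and with both sexes (2.93), and the lung sex call with edgeR (3.98), DESeq2 (3.99) and letter A (3.75), while it turned without the 4 (-0.15). With library size alone, miR-135a-5p in C3H brain turned (-0.010). Among irradiated mice, the lung strain call of miR-135a-5p was lost with letter A (1.52) and with sex as a covariate (1.097), that of miR-135b-5p was gained with letter B (1.70) and without the 4 (1.54), and in brain miR-135a-5p was called with sex as a covariate (-1.196) and miR-135b-5p with no fold minimum (-0.50).

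Leaving out 1 irradiated library moved changes of miR-135a-5p from -0.0035 to 0.17 in C3H lung, -0.066 to 0.19 in C3H brain, -0.31 to 0.057 in C57 brain and, for the brain interaction, -0.031 to 0.41, all far from the threshold. The strain difference of miR-135a-5p in irradiated brain then ranged from -0.67 to -0.22. The C57 lung change of miR-135b-5p ranged from 0.54 to 1.27. Neither reached an adjusted p under 0.05. For the sum, C3H heart was called at a pseudocount of 0.5 (-0.93) and with TMM totals (-0.77). C3H lung was no longer called within letter A (1.33) or B (2.08), at an unadjusted p of 0.0286, the smallest these library numbers allow. Signs turned in C3H brain with TMM totals (0.034) and within letter B (0.077), and within letter A in C57 lung (-0.35), C3H WBC (-0.17) and C3H RBC (0.057). In blood, miR-135a-5p passed with both sexes of C57 (0.79 in WBC, 0.62 in RBC). The order of WBC and RBC for miR-135a-5p turned with no replicate block in C3H (0.035) and without the 5 most abundant miRNAs in C57 (-0.058). Low counts limit miR-135a-5p in C3H heart and blood and miR-135b-5p in heart.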
